A study of Mus musculus with 18 samples.

Results

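This account follows 10 chemokine genes (Cxcl10, Ccl12, Ccl4, Ccl5, Ccl2, Ccl3, Cxcl1, Cxcl12, Cxcl16 and Cx3cl1) in whole mouse retinas after optic nerve crush. They were chosen by gene symbol, with earlier results of these data known. All probes whose RefSeq accession maps to those symbols were taken: 11 of the 39429 probes on the array, for 10 of its 20144 genes with a symbol. Cxcl12 had 2 probes and each other gene had 1. All 10 genes were among the 25359 genes and single probes tested, for which Cy5 exceeded background clearly on 3 or more arrays.

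Map3k12, the gene of the axon injury kinase DLK, was floxed (DLK lox/lox) in every mouse, and all mice received tamoxifen when 10 to 12 weeks old. The Cre-positive ones had in addition the inducible recombinase Cre-ERT, driven by the CAG promoter, which is active in many tissues and not limited to neurons. The labels give 5 crushed Cre-positive, 3 crushed Cre-negative, 5 uncrushed Cre-positive and 4 uncrushed Cre-negative retinas, all taken 3 days after crush, with the uninjured eye as the control. One further array from a Cre-negative mouse, uncrushed by its title and crushed by its description, was kept out of every comparison. The Cy5 channel held the RNA of 1 retina and the Cy3 channel universal mouse reference RNA, and each value below is a log2 ratio of Cy5 over Cy3. Ratios of different genes were not compared, since each depends on its own level in the reference. The labels do not say which retinas came from the same or from separate animals, so p-values measure only the spread between these samples.

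Chemokines are small secreted proteins that attract leukocytes through G-protein-coupled receptors. In neural tissue many of them are made by microglia, astrocytes or Müller glia after injury, mostly downstream of NF-kappa-B or interferon signalling, whereas Cx3cl1 and Cxcl12 are made without injury. Cx3cl1 is made by neurons, and its receptor Cx3cr1 is carried by microglia.

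The share of probes detected well above background in Cy5 was 68% to 75.5% per array, and the median net Cy5 signal was 148 to 202 intensity units. All 17 marker genes of retinal neurons and Müller glia were well above background on each of the 17 arrays, so the labelled tissue carried its markers. Map3k12 was 0.47 lower in crushed Cre-positive than in crushed Cre-negative retinas (SE 0.12, limma adjusted p = 0.061) and 0.43 lower in uncrushed ones (SE 0.11, limma adjusted p = 0.88). Neither difference passed the test; where the probe lies relative to the deleted part was not analysed here. A few arrays stood apart in genes of other eye tissues. The corneal keratin Krt12 read 3.5 and 5.55 in uncrushed Cre-positive replicates 2 and 4, and the lens crystallin Cryaa read 3.18 in crushed Cre-positive replicate 5, which also had the highest S100a8, a neutrophil gene, at -0.13. The chemokine results are given with and without these 3 arrays where that changed a call. Crushed Cre-positive replicate 4 had the next highest Krt12, at 2.09, and was not among these 3.

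The upstream sequences of Cxcl10 and Ccl12 are shown because these chemokines had the largest changes and the most similar patterns over the arrays, described below. RefSeq entries (GRCm38.p6) were matched for 6 of the 10 genes: Cxcl10, Ccl12, Ccl3, Cxcl1, Cxcl12 and Cx3cl1. Each sequence holds the 250 bases before the annotated start, 5′ to 3′ on the strand of the gene, at chr5:92348890-92349139 on the minus strand for Cxcl10 and chr11:82101595-82101844 on the plus strand for Ccl12. Capitals mark matches, on either strand, to the NF-kappa-B consensus, the interferon-stimulated response element, the STAT site TTCNNNGAA, the AP-1 site TGANTCA or the C/EBP site TTGCNNAA.
Cxcl10: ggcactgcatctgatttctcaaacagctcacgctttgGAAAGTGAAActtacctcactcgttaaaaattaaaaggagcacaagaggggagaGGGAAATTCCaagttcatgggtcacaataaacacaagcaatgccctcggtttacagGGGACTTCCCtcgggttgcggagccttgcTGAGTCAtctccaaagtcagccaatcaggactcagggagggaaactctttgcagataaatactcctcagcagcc
Ccl12: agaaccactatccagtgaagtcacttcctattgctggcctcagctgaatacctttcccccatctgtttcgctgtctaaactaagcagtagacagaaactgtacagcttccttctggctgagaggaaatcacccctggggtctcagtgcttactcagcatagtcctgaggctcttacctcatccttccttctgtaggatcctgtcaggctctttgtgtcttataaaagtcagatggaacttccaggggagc
The Cxcl10 window held 2 matches to the NF-kappa-B consensus, 1 to the interferon-stimulated response element and 1 to the AP-1 site. Over all 32851 windows of the same length, these motifs were present in 3.9%, 2.98% and 6.75%. The STAT and C/EBP letters, present in 7.02% and 9.56% of all windows, were in neither sequence. The Ccl12 window held none of the 5 motifs, and among the other 4 genes matched only Cxcl1 held one, as 2 overlapping matches to the NF-kappa-B consensus. These matches describe letters only, and binding was not measured.

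The chemokine response to crush was led by Cxcl10 and Ccl12, which rose in both genotypes, and by Ccl4. Averaged over the genotypes, 5 of the 10 chemokines rose (Cxcl10, Ccl12, Ccl4, Ccl5 and Ccl2) and 0 fell, against 2.61% of all genes called higher and 0.95% called lower in the same limma contrast. The 10 genes were chosen with earlier results of these data known, so these counts describe them and do not test chemokines as a class. Of 15 other chemokines kept, 0 were called in this contrast. In Cre-positive retinas 2 rose (Cxcl10 and Ccl12), where 0.682% of all genes were called higher. In Cre-negative retinas 3 rose (Cxcl10, Ccl12 and Ccl4), where 1.35% of all genes were called higher. The median log2 change of the 10 genes in the mean response was 0.15, beside 0.00084 over all genes. Calls are Benjamini-Hochberg adjusted p-values under 0.05 over all 25359 genes, two-sided, in limma. In whole retina, more cells that express a gene and more RNA per cell cannot be told apart.

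**Figure D1:**
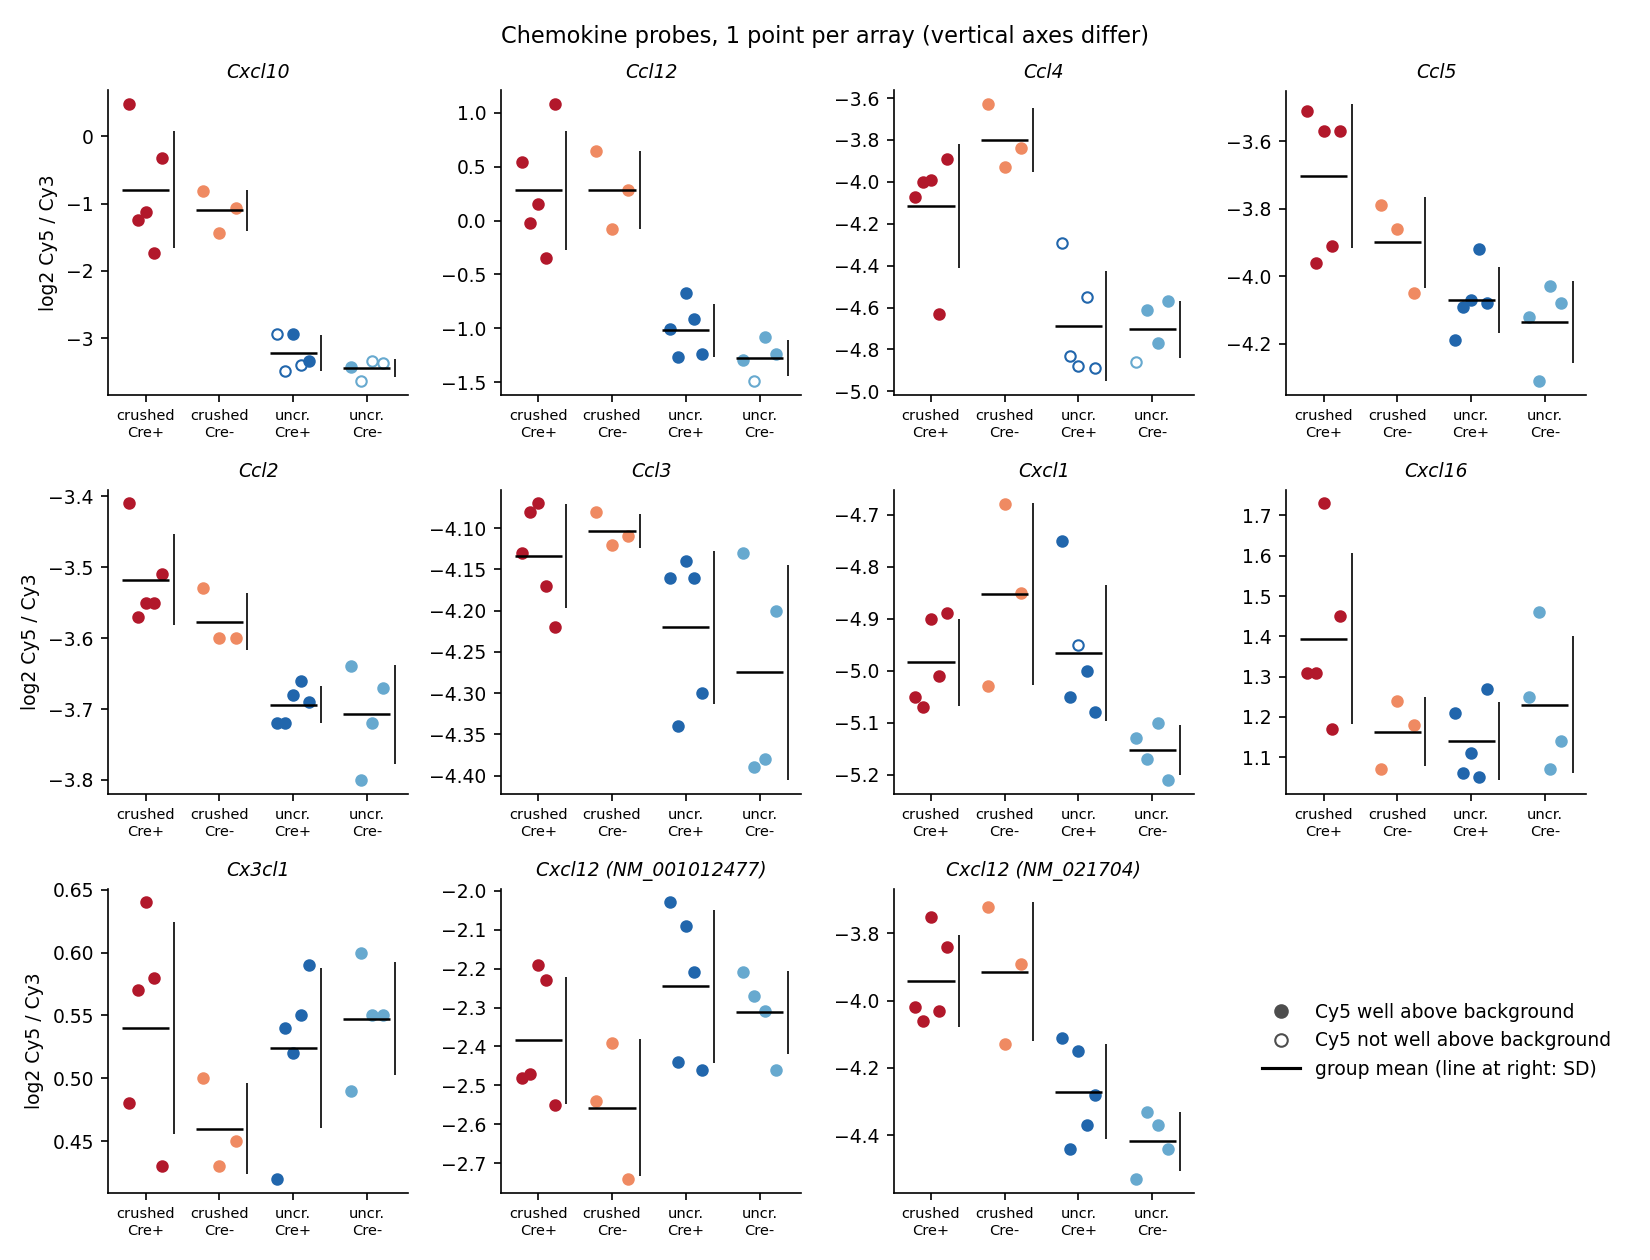
Log2 Cy5 over Cy3 of each chemokine probe, 1 point per array, for crushed Cre-positive (n = 5), crushed Cre-negative (n = 3), uncrushed Cre-positive (n = 5) and uncrushed Cre-negative (n = 4) retinas; horizontal lines are group means, vertical lines SDs, and open points are arrays where Cy5 was not well above background. For Cxcl10, Ccl12 and Ccl2 all 8 crushed arrays lie above all 9 uncrushed arrays, as for 0.619% of all genes.

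Cxcl10, an interferon-inducible ligand of the T and NK cell receptor Cxcr3, had the largest change of the 10. It read 0.47, -1.24, -1.13, -1.74 and -0.33 in the crushed Cre-positive retinas and -0.82, -1.43 and -1.06 in the crushed Cre-negative ones. The uncrushed Cre-positive retinas read -2.93, -3.48, -2.93, -3.4 and -3.33, and the uncrushed Cre-negative ones -3.43, -3.63, -3.33 and -3.37. Every crushed array was above every uncrushed one, a separation that 0.619% of all genes showed, and the crushed Cre-positive group was the most spread, with replicates 1 and 5 the highest. Cy5 was well above background on 8 of 8 crushed and 3 of 9 uncrushed arrays.

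The mean crush response of Cxcl10 was 2.38 on the log2 scale, or 5.2-fold (95% confidence interval 3.75 to 7.22, limma adjusted p = 2.9e-06). It was 5.35-fold in Cre-positive (adjusted p = 3e-04) and 5.06-fold in Cre-negative retinas (adjusted p = 0.00055). In Cre-negative retinas the limma adjusted p was 0.11 when the array with disagreeing labels was placed with the uncrushed retinas and 0.00011 when it was placed with the crushed ones. The offset of 50 added during background correction pulls ratios of dim spots toward 0. Agilent's processed signals, which carry no such offset, gave a mean log2 change of 4.31 (limma adjusted p = 2.8e-06). Which of the steps that differ between these settings moved the size was not tested.

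Ccl12 is a mouse monocyte attractant that acts through Ccr2 and is a close relative of Ccl2. It read 0.54, -0.02, 0.15, -0.35 and 1.08 in crushed Cre-positive and 0.65, -0.08 and 0.28 in crushed Cre-negative retinas. The uncrushed values were -1.01, -1.27, -0.67, -0.91 and -1.24 in Cre-positive and -1.3, -1.49, -1.08 and -1.24 in Cre-negative retinas. All crushed arrays lay above all uncrushed ones, as for 0.619% of all genes. The mean response was 2.69-fold (95% confidence interval 2.13 to 3.41, limma adjusted p = 2.1e-05), with 2.46-fold in Cre-positive (adjusted p = 0.0037) and 2.94-fold in Cre-negative retinas (adjusted p = 0.0012). With the array of disagreeing labels among the uncrushed retinas, the adjusted p was 0.11 in Cre-positive and 0.063 in Cre-negative retinas. Processed signals gave a log2 change of 2.57 in place of 1.43.

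Ccl4, an attractant of macrophages and T cells, read -4.07, -4, -3.99, -4.63 and -3.89 in crushed Cre-positive and -3.63, -3.93 and -3.84 in crushed Cre-negative retinas. The uncrushed values were -4.29, -4.83, -4.88, -4.55 and -4.89 in Cre-positive and -4.86, -4.61, -4.77 and -4.57 in Cre-negative retinas. Crushed and uncrushed arrays separated in Cre-negative retinas, as they did for 8.81% of all genes. They overlapped in Cre-positive retinas, where replicate 4 was the lowest crushed array. The mean response was 1.67-fold (95% confidence interval 1.43 to 1.94, limma adjusted p = 0.00022). In Cre-negative retinas it was 1.87-fold (adjusted p = 0.0031), and in Cre-positive retinas the change did not pass (adjusted p = 0.054). Processed signals gave log2 changes of 1.87 in place of 0.74 in the mean response and 1.84 in place of 0.9 in Cre-negative retinas.

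Ccl4 was well above background on 0 of 5 uncrushed Cre-positive arrays, so there the change has only a bound: Cy5 was at least 1.44-fold higher in crushed Cre-positive retinas. The bound sets the crushed mean against the higher of the dim probe and the lowest signal well above background on each array, after loess and Aquantile scaling, and is open to dye bias. The limma adjusted p in Cre-positive retinas was 0.0038 without crushed Cre-positive replicate 4, 0.016 without uncrushed Cre-positive replicate 1 and 0.0049 with processed signals. It was under 0.05 in 8 of 28 other settings and ran from 0.003 to 0.46 over them. The mean response also includes this dim group, and its size is limited in the same way.

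Ccl5, a T cell and monocyte attractant, read -3.51, -3.96, -3.57, -3.91 and -3.57 in crushed Cre-positive and -3.79, -3.86 and -4.05 in crushed Cre-negative retinas. The uncrushed values were -4.19, -4.09, -4.07, -3.92 and -4.08 in Cre-positive and -4.12, -4.31, -4.03 and -4.08 in Cre-negative retinas. The groups overlapped in both genotypes. The mean response was 1.23-fold (95% confidence interval 1.11 to 1.37, limma adjusted p = 0.018), and neither genotype passed alone. In Cre-positive retinas the log2 change was 0.37 (limma adjusted p = 0.068), and the adjusted p was 0.024 without crushed Cre-positive replicate 2 and 0.032 without replicate 4. The mean response passed in 23 of 29 other settings. Its limma adjusted p was 0.074 without crushed Cre-negative replicate 1, 0.051 without crushed Cre-negative replicate 2, 0.079 with processed signals, 0.075 with Cy5 alone, 0.066 with median centring in place of loess, and 0.11 with the array of disagreeing labels among the uncrushed retinas.

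Ccl2, which attracts monocytes through Ccr2 and whose sequence is close to that of Ccl12 (cross-hybridisation was not tested), rose by a small amount in the mean response. It read -3.41, -3.57, -3.55, -3.55 and -3.51 in crushed Cre-positive and -3.53, -3.6 and -3.6 in crushed Cre-negative retinas. The uncrushed values were -3.72, -3.72, -3.68, -3.66 and -3.69 in Cre-positive and -3.64, -3.8, -3.72 and -3.67 in Cre-negative retinas. All crushed arrays lay above all uncrushed ones, a separation that 0.619% of all genes showed, but the mean response was 1.11-fold (95% confidence interval 1.06 to 1.17, limma adjusted p = 0.014). Its probe is printed 10 times on each array, with an SD between spots of 0.03 to 0.07 within an array. That spread is technical and does not measure the spread between retinas. Between the means of uncrushed arrays the SD was 0.05. The call was lost with median centring in place of loess (limma adjusted p = 0.57), without crushed Cre-negative replicate 1 (adjusted p = 0.057) and without the 3 arrays that stood apart (adjusted p = 0.057). Ccl2 did not pass in either genotype alone (limma adjusted p = 0.082 in Cre-positive and 0.26 in Cre-negative retinas). Over 29 other settings its log2 change in Cre-negative retinas ran from -0.01 to 0.16.

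Ccl3, a macrophage attractant and a ligand of Ccr1, ranged from -4.22 to -4.07 in crushed and from -4.39 to -4.13 in uncrushed retinas. Its mean log2 change was 0.13 (SE 0.05, limma adjusted p = 0.17). It did not pass the test in either genotype, unlike Ccl4, though the difference between the genes was not tested.

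Cxcl1, a neutrophil attractant that acts through Cxcr2, read -5.05, -5.07, -4.9, -5.01 and -4.89 in crushed Cre-positive and -5.03, -4.68 and -4.85 in crushed Cre-negative retinas. The uncrushed values were -4.75, -5.05, -4.95, -5 and -5.08 in Cre-positive and -5.13, -5.17, -5.1 and -5.21 in Cre-negative retinas. Crushed arrays exceeded uncrushed ones in Cre-negative retinas, as did 8.81% of all genes, with a log2 change of 0.3 (limma adjusted p = 0.077). That limma adjusted p was 0.032 without crushed Cre-negative replicate 1, 0.039 without uncrushed Cre-positive replicate 1 and 0.031 with the deposited value table. In Cre-positive retinas the change was -0.02 (adjusted p = 0.96), and its sign turned in 8 of 28 other settings, with values of -0.08 to 0.37, none called. The mean response of Cxcl1 was 0.14 (limma adjusted p = 0.21). It was called with processed signals (0.42, adjusted p = 0.0077), Cy5 alone (0.43, adjusted p = 0.012) and the deposited value table (0.18, adjusted p = 0.039). The difference between the responses of the genotypes was -0.32 (95% confidence interval -0.55 to -0.09, limma adjusted p = 0.38), so it did not pass the test over all genes. Cre-positive minus Cre-negative, Cxcl1 differed by -0.13 in crushed and by 0.18 in uncrushed retinas, neither called.

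**Figure D2:**
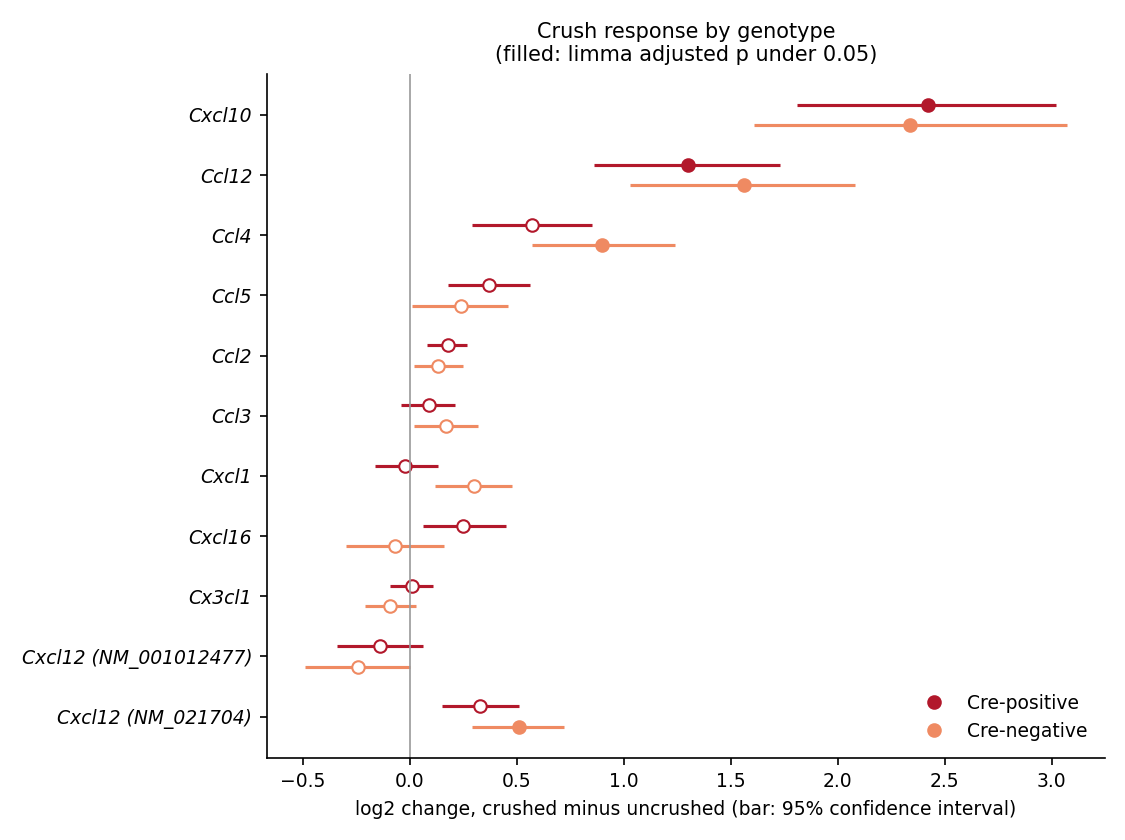
Log2 change with crush of each chemokine probe in Cre-positive and Cre-negative retinas, with 95% confidence intervals from limma; filled points passed at an adjusted p under 0.05. Cxcl10 and Ccl12 passed in both genotypes, Ccl4 (0.9) and the dimmer Cxcl12 probe (0.51) in Cre-negative retinas, and the intervals of the genotypes overlap for each of these 4 probes.

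Cxcl12, the ligand of Cxcr4 and Ackr3, was the chemokine whose probes disagreed. The brighter probe, for NM_001012477, read -2.48, -2.47, -2.19, -2.23 and -2.55 in crushed Cre-positive and -2.54, -2.39 and -2.74 in crushed Cre-negative retinas. Uncrushed values were -2.03, -2.44, -2.09, -2.21 and -2.46 in Cre-positive and -2.21, -2.27, -2.31 and -2.46 in Cre-negative retinas. Its mean log2 change was -0.19 (SE 0.08, limma adjusted p = 0.24).

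The dimmer Cxcl12 probe, for NM_021704, read -4.02, -4.06, -3.75, -4.03 and -3.84 in crushed Cre-positive and -3.72, -4.13 and -3.89 in crushed Cre-negative retinas. Uncrushed values were -4.11, -4.44, -4.15, -4.37 and -4.28 in Cre-positive and -4.53, -4.33, -4.37 and -4.44 in Cre-negative retinas. Crushed and uncrushed arrays separated within each genotype, as they did for 1.52% of all genes in Cre-positive and 8.81% in Cre-negative retinas. In a fit of every probe on its own it rose by a mean of 1.34-fold (95% confidence interval 1.21 to 1.47, limma adjusted p = 0.00078), where 2.36% of probes were called higher. The rise passed in Cre-negative retinas (1.42-fold, limma adjusted p = 0.01), where 1.21% of probes were called higher, and not in Cre-positive ones (1.26-fold, adjusted p = 0.093), where 0.646% were.

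The difference between the Cxcl12 probes, dimmer minus brighter, averaged -1.48 ± 0.25 in 8 crushed and -2.06 ± 0.14 in 9 uncrushed arrays (SD). The change of 0.58 had an exact permutation p of 4.1e-05, two-sided, the smallest that 24310 splits can give, in a comparison chosen after its values were seen. It was 0.58 to 0.66 over the 5 other ways of computing the values, 0.53 to 0.63 with each array left out in turn, and 0.6 with the slide as a block. With the array of disagreeing labels among the uncrushed retinas it was 0.52 (exact permutation p = 0.00041). Whether each probe reads a separate Cxcl12 transcript was not tested. Because of this disagreement no direction is given for Cxcl12 as a gene.

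**Figure D3:**
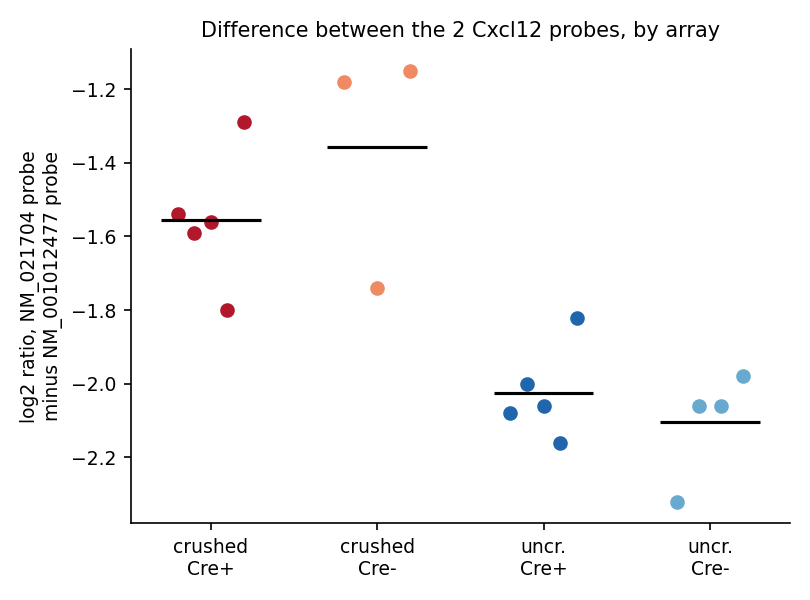
Log2 ratio of the dimmer minus that of the brighter Cxcl12 probe, 1 point per array, in the 4 groups with group means as lines. The crushed arrays lie at -1.8 to -1.15 and the uncrushed arrays at -2.32 to -1.83.

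The chemokines that are first made as membrane-bound proteins showed no called change. Cxcl16, the ligand of Cxcr6, read 1.31, 1.31, 1.73, 1.17 and 1.45 in crushed Cre-positive and 1.07, 1.24 and 1.18 in crushed Cre-negative retinas, against 1.21, 1.06, 1.11, 1.05 and 1.27 in uncrushed Cre-positive and 1.25, 1.46, 1.07 and 1.14 in uncrushed Cre-negative ones. The groups overlapped, crushed Cre-positive replicate 3 was the highest, and the mean log2 change was 0.09 (95% confidence interval -0.06 to 0.24, limma adjusted p = 0.62). By genotype the change was 0.25 in Cre-positive (limma adjusted p = 0.35) and -0.07 in Cre-negative retinas (adjusted p = 0.86). The difference between them was 0.32 (95% confidence interval 0.02 to 0.62, limma adjusted p = 0.57), which did not pass over all genes. Cx3cl1 was steady on every array, at 0.43 to 0.64 in crushed and 0.42 to 0.6 in uncrushed retinas. Its mean log2 change was -0.04 (95% confidence interval -0.12 to 0.04, limma adjusted p = 0.71), so the interval spans changes of 0.922-fold to 1.03-fold.

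Each slide held 1 scan, and crushed and uncrushed retinas of 1 genotype shared a slide in 7 comparisons. Cxcl10, Ccl12, Ccl4, Ccl5 and Ccl2 were each higher in the crushed retina in 7 of 7. They had been called higher on the same arrays, so this count is not separate evidence, and no share over all genes is given. The dimmer Cxcl12 probe was higher in 7 of 7, by 0.22 to 0.72, and the brighter one in 0 of 7. Differences of the brighter probe ran from -0.52 to -0.01, some of them close to no change. No share over all probes was computed for these counts. The within-slide differences were 1.73 to 3.95 for Cxcl10, 0.69 to 2.1 for Ccl12, 0.4 to 0.94 for Ccl4, 0.12 to 0.62 for Ccl5 and 0.12 to 0.31 for Ccl2. With the slide as a block in limma all 5 kept their calls in the mean response, with log2 changes of 2.33, 1.4, 0.72, 0.29 and 0.16 and adjusted p-values of 2.3e-05, 0.00028, 0.00084, 0.037 and 0.029. Crushed retinas sat at even and uncrushed retinas at odd positions on the slides, so position and crush cannot be told apart. The array with disagreeing labels was on slide 5 at position 4, and the other arrays at position 4 were all labelled crushed.

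**Figure D4:**
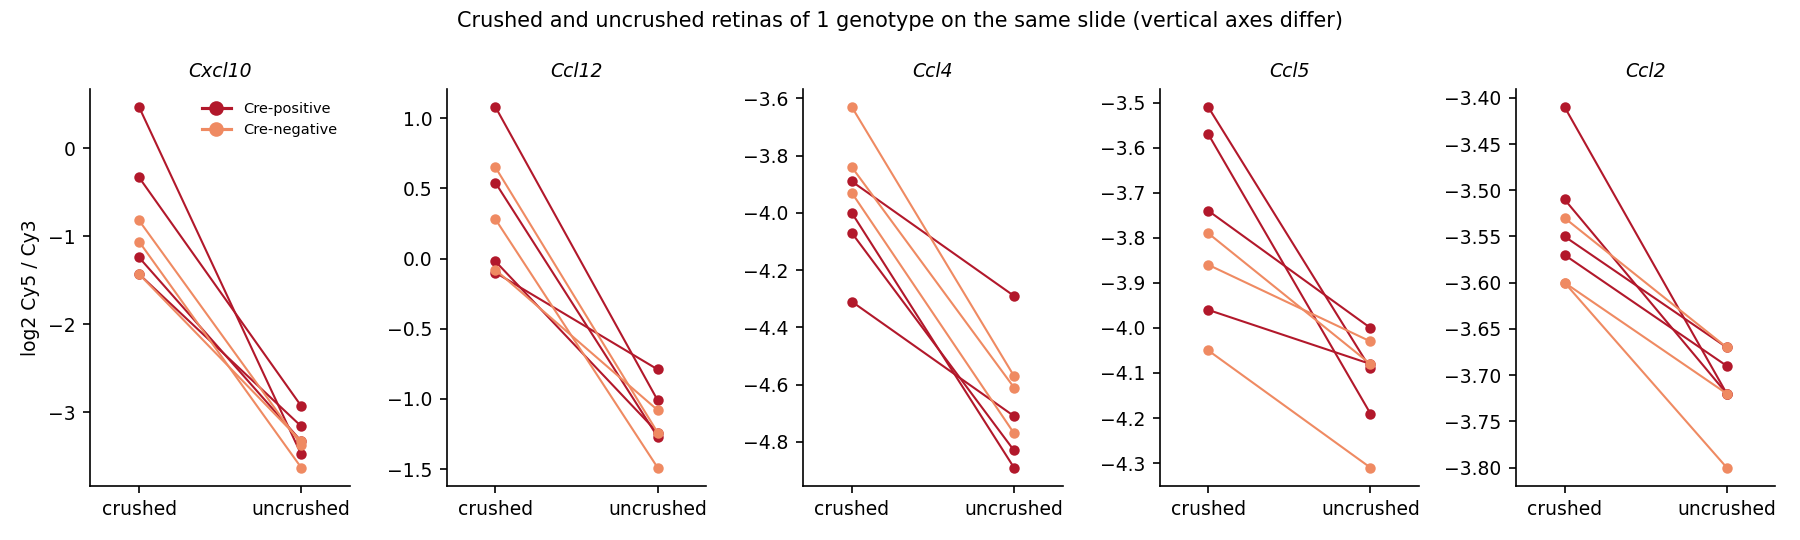
Log2 Cy5 over Cy3 of the 5 called chemokines in crushed and uncrushed retinas of 1 genotype on the same slide; each line joins 1 comparison, with the mean taken where a slide held 2 arrays of a group. All lines fall to the right, from 0.12 for Ccl5 and Ccl2 to 3.95 for Cxcl10.

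The question the genotypes address is whether loss of Map3k12 alters the injury response. For the chemokines no difference between the crush responses was called: 0 of 10, where 0.418% of all genes were called in limma and 2 of the 10 had an unadjusted p under 0.05 (Cxcl1 and Cxcl16). For Cxcl10 the difference, Cre-positive minus Cre-negative, was 0.08 (95% confidence interval -0.87 to 1.03, adjusted p = 0.98), and for Ccl12 it was -0.26 (95% confidence interval -0.94 to 0.42, adjusted p = 0.87). For Ccl4 it was -0.33 (95% confidence interval -0.77 to 0.11, adjusted p = 0.71), with uncrushed Cre-positive signal not well above background. These intervals leave room for sizeable differences, so the responses are not shown to be alike. For Ccl2 the difference was 0.04 (95% confidence interval -0.1 to 0.19, limma adjusted p = 0.91). That interval reaches past the mean log2 response of Ccl2, 0.15, so its responses are not shown to be alike either. Over 29 other settings the Ccl2 difference ran from 0.01 to 0.29.

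Crushed Cre-positive and crushed Cre-negative retinas also differed in 0 of 10 chemokines, where 1.16% of all genes were called. Their means were -0.79 ± 0.87 and -1.1 ± 0.31 for Cxcl10 and 0.28 ± 0.55 and 0.28 ± 0.37 for Ccl12 (SD, n = 5 and 3). Uncrushed retinas differed in 0 of 10, where 0.0118% of all genes were called. In each of these 2 contrasts 1 of 10 had an unadjusted limma p under 0.05. It was Cxcl16 in crushed retinas (0.23, limma adjusted p = 0.34) and Cxcl1 in uncrushed ones (0.18, limma adjusted p = 0.88). The same arrays did hold called genotype differences in ganglion cell transcription factors. Isl2 changed with crush by -0.25 in Cre-positive and -1.69 in Cre-negative retinas, a difference of 1.44 (limma adjusted p = 6.5e-07). Pou4f2 changed by -0.37 and -1.77 in the same order, a difference of 1.4 (limma adjusted p = 0.00066). Of 17 genes of retinal neurons and Müller glia, 5 fell in the mean crush response (Isl2, Pou4f2, Pou4f1, Rbpms and Glul, by limma) and 3 were called for the genotype difference.

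The genes most like Cxcl10 over the 17 arrays by Pearson's r were Ccl12 (0.96), the innate immune receptor Tlr2 (0.95), the interferon-induced Gbp2 and Rsad2 (0.94 each) and Ccl2 (0.92). Within the 8 crushed arrays alone, r with Cxcl10 was 0.98 for Rsad2, 0.88 for Ccl2, 0.78 for Gbp2, 0.76 for Ccl12 and 0.68 for Tlr2. The order of these genes rests on few arrays: without the 2 farthest crushed arrays, r was 0.29 for Ccl2 and 0.97 for Ccl12. Within the 9 uncrushed arrays it was 0.83 for Tlr2, 0.79 for Ccl12, 0.65 for Rsad2, 0.57 for Gbp2 and 0.25 for Ccl2. The genes most like Ccl12 were Nlrc5, a regulator of MHC class I genes, Tlr2 and the stress-induced Nupr1 (0.97 each), followed by Cxcl10 and the tubulin gene Tubb6 (0.96 each). Within crushed arrays r with Ccl12 was 0.97 for Nlrc5 and 0.92 for Tlr2. Crushed and uncrushed arrays form separate clusters, so the values over 17 arrays mostly restate the crush response, and all are given as descriptions.

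**Figure D5:**
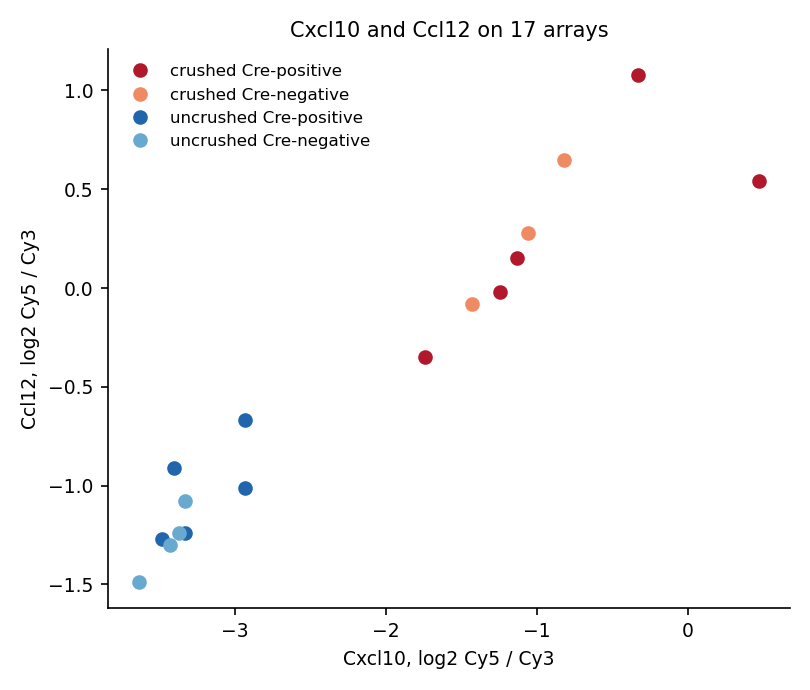
Log2 Cy5 over Cy3 of Cxcl10 (horizontal) and Ccl12 (vertical) on 17 arrays, coloured by group. The 8 crushed arrays form a cluster apart from the 9 uncrushed arrays, and within the crushed arrays r was 0.76.

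Among the chemokine receptors, the largest called change in the mean crush response was that of Cx3cr1. This receptor of Cx3cl1 on microglia rose by 0.66 on the log2 scale (limma adjusted p = 0.0039, SE 0.13), with 0.74 in Cre-positive and 0.59 in Cre-negative retinas. Ccr2, the receptor of Ccl2 and Ccl12, was not well above background on any of the 17 arrays, and neither was Cxcr2, the receptor of Cxcl1. Changes of 4 other receptors of these ligands were small and not called: 0.03 for Cxcr3, 0.1 for Cxcr4, 0.09 for Ackr3 and 0.01 for Cxcr6, with limma adjusted p-values of 0.89, 0.67, 0.63 and 0.97.

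Of 28 other chemokines, 15 were kept and 0 were called in any of the 6 contrasts, with mean crush responses of -0.06 to 0.34. Cxcl9, which like Cxcl10 is interferon-induced and binds Cxcr3, changed by 0 (limma adjusted p = 0.99), and Ccl7, a further Ccr2 ligand, by 0.15 (limma adjusted p = 0.29). Cxcl5 changed by 0.34 (limma adjusted p = 0.34). A count of 0 here says only that none passed the threshold in limma.

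Among 27 kept genes of 31 inducing cytokines and their signal transducers, 10 rose and 0 fell in the mean crush response, with a median log2 change of 0.15. Of all genes, 2.61% were called higher and 0.95% lower in that contrast. The largest was Cebpd, a transcription factor of the acute-phase response, at 2.08 (SE 0.24, limma adjusted p = 2.3e-05). Bcl3, a cofactor of NF-kappa-B, rose by 1.52 (adjusted p = 0.00044), Cebpb by 0.9 (adjusted p = 0.00033), Stat3, the transducer of interleukin-6 family cytokines, by 0.83 (adjusted p = 6.6e-05), and Tnfrsf1a, a receptor of tumour necrosis factor, by 0.51 (adjusted p = 0.00043). The inducing cytokines Tnf and Il1b were not called, at 0.05 and 0.15 (limma adjusted p = 0.72 and 0.64).

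Most of the microglial markers also rose with crush, where 2.61% of all genes were called higher in the mean response. Sall1 (0.15, limma adjusted p = 0.31), P2ry12 (0.04, adjusted p = 0.81) and Siglech (0) were not called. Of 15 microglial genes, all well above background on every array, 12 rose and 0 fell, with a median log2 change of 0.46, led by Aif1 (0.86, limma adjusted p = 6.6e-06), C1qc (0.75, adjusted p = 4.9e-06) and Ctss (0.73, adjusted p = 3.2e-05). Their summed net Cy5 was 154000 to 196000 in crushed Cre-positive, 144000 to 174000 in crushed Cre-negative, 134000 to 163000 in uncrushed Cre-positive and 114000 to 178000 in uncrushed Cre-negative retinas. The microglial part in the chemokine changes was not tested.

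Of 11 kept monocyte and macrophage genes 2 rose, Mrc1 by 0.25 (limma adjusted p = 0.011) and F13a1 by 0.39 (limma adjusted p = 0.038), while Ccr2 and Cd163 were never well above background. Their summed net Cy5 was 8540 to 12400 in crushed Cre-positive, 7440 to 9010 in crushed Cre-negative, 7250 to 8720 in uncrushed Cre-positive and 8500 to 9340 in uncrushed Cre-negative retinas. None of 6 kept neutrophil genes or 10 kept lymphocyte genes was called, and Cxcr2, Mmp8, Ngp and Gzmb were never well above background. Summed neutrophil signal was 1870 to 6120 in crushed Cre-positive, 1570 to 2390 in crushed Cre-negative, 1910 to 8000 in uncrushed Cre-positive and 1680 to 2130 in uncrushed Cre-negative retinas. None of 8 kept vessel and blood genes and none of 12 lens, cornea and pigment epithelium genes was called, but for the last list the summed signal reached 47000 in uncrushed Cre-positive retinas. Without the 3 arrays that stood apart, Cxcl10 changed by a log2 mean of 2.25 (limma adjusted p = 5.2e-05), Ccl12 by 1.31 (adjusted p = 3.5e-05), Ccl4 by 0.71 (adjusted p = 0.0017) and Ccl5 by 0.31 (adjusted p = 0.045).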

How the data were processed

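Each retina was hybridised to 1 Agilent array, with the reference RNA in the second channel, per the labels. The deposited scanner files (Agilent Feature Extraction 10.7.3.1, per the file headers) hold median spot and local background intensity with no normalization, and processed signals, an intensity corrected for background and dye. They also hold the scanner software's log10 of processed red over green signal, per the file headers, and its deposited flags for signal above background and saturation. The deposited value table was made by the authors with limma, per the submitters' processing notes, and its values were read as log2 ratios. No label states that scale; it was taken from the closeness to the ratios computed here (r of 0.999 to 1 per array, column medians 0.015 to 0.0237).

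In R 4.3.3 with limma 3.58.1, median intensities (mean intensities had been planned, but the files hold medians) were corrected by normexp (offset 50) and loess within each array, outlier spots were left out (49 missing values among tested genes), and spots of a probe were averaged. Of 39429 probes, 26581 were given a symbol through RefSeq accessions and 12848 stayed single probes. The probe with the highest mean intensity stood for a gene, and 25359 genes or single probes with Cy5 well above background on at least 3 arrays were tested. A group-means fit over 17 arrays gave 6 contrasts, with 13 residual and 4.48 prior degrees of freedom; this was tested on simulated data. Probe pairs were compared by exact permutation. The number of arrays limits the precision. Named genes were the 10 chemokines, up to 5 called genes of each of 10 lists by adjusted p (167 of 172 list entries were on the array), the 5 genes most like Cxcl10 and Ccl12, and Map3k12; other genes named were chosen after their values were seen. The members and lists were chosen with earlier results of these data known. Alternatives were processed signals, no background subtraction, median centring, Cy5 alone, the deposited value table, other filters, single probes, the slide as a block, either placement of the array with disagreeing labels, and each array left out. Leaving out 3 arrays with cornea or lens signal and the Cxcl12 probe comparison were added after seeing the data. Some genes are not reported here.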

Additional observations from a re-analysis of the deposited data

Results flagged for a closer look

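Ccl4 in crushed Cre-positive replicate 4 read -4.63, far below the other 4 crushed Cre-positive arrays at -4.07 to -3.89. It was the 1 such array among 33 sets of values of 11 probes in 3 groups, and chance gives about 1 in 20 sets.

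The array with disagreeing labels was outside every comparison. Of the 5 chemokines called in the mean crush response, it was above all 9 uncrushed arrays for 4. The share of all genes for which it was so was not computed. It read -1.14 for Cxcl10, where uncrushed arrays read -3.63 to -2.93, and -0.1 for Ccl12, where they read -1.49 to -0.67. It read -3.94 for Ccl4, where they read -4.89 to -4.29, and -3.77 for Ccl5, where they read -4.31 to -3.92. For Ccl2 it read -3.65, within their range of -3.8 to -3.64. It was also above them for Cxcl16 (1.55, uncrushed highest 1.46) and the dimmer Cxcl12 probe (-3.88, uncrushed highest -4.11). This array was not above all of them for Ccl3, Cxcl1, Cx3cl1 or the brighter Cxcl12 probe. It was on slide 5 at position 4, where the other arrays were all labelled crushed. Neither these values nor its position were used to assign it to a group.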

How the results depend on the processing

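Over 28 other settings Cxcl10 stayed between 2.15 and 4.31 and Ccl12 between 1.31 and 2.59 in the mean crush response, both called in each; both drop from the genes tested where Cy5 must be well above background on all 17 arrays. No called change reversed. Among uncalled values, the genotype difference of Cxcl10, Ccl3 and Ccl4 changed sign in 4, 1 and 2 settings.

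Placing the array with disagreeing labels with the uncrushed retinas left 1 chemokine called in Cre-positive and 0 in Cre-negative retinas, where Cxcl10 had an adjusted p of 0.11, Ccl12 of 0.063 and Ccl4 of 0.11; genes called were then 10 in Cre-positive, 73 in Cre-negative and 282 in the mean response, 0 for the genotype difference and 117 for the Cre effect in crushed retinas, against 195, 550, 903, 106 and 293 without it. Median centring gave 4 chemokines in Cre-positive retinas (Ccl4 and Ccl5 added) and 3 in the mean response (Ccl2 and Ccl5 lost, adjusted p = 0.57 and 0.066), with 362 genes in Cre-negative retinas and 469 in the mean response. The filter on all 17 arrays left 0, 0 and 2 chemokines in the Cre-positive, Cre-negative and mean responses, since Cxcl10, Ccl12 and Ccl4 were then not tested. It left 0 genes for the Cre effect in uncrushed retinas. Processed signals gave 69 genes for the genotype difference. The slide block gave 145 genes for the Cre effect in crushed and 1 in uncrushed retinas. Without the 3 arrays that stood apart, 95 genes were called in Cre-positive retinas and 1 for the Cre effect in uncrushed ones. Apart from the chemokines that the filter removed, the cause of these shifts was not tested.

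With each array left out, 2 to 4 chemokines were called in Cre-positive, 3 to 4 in Cre-negative and 3 to 5 in the mean response, and 0 in the other contrasts. Genes called were 112 to 234 in Cre-positive, 323 to 679 in Cre-negative and 621 to 1015 in the mean response, 78 to 121 for the genotype difference, 163 to 326 for the Cre effect in crushed and 1 to 3 in uncrushed retinas. No paired analysis was possible because the labels carry no replicate numbers. Dim signal limits Cxcl10, Ccl12, Ccl4 and Cxcl1, which were not well above background on some uncrushed arrays.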
